A study of Mus musculus with 11 samples.

Results

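The killer lectin-like receptor genes of the mouse were examined for chromatin accessibility in thymic and bone marrow lymphoid cells. They were taken as the protein-coding genes of the GENCODE M21 annotation (mm10 build) whose symbols begin with Klr, then a letter from a to k, then a number. The rule gave 26 of 21938 protein-coding genes, all on chromosome 6. Of these, 24 lay in the natural killer gene complex, from *Klrb1a* to *Klra2* (chr6:128609227-131247362, a span of 2638136 bp), and *Klrg1* and *Klrg2* lay elsewhere on the chromosome. A peak was assigned to a gene when it overlapped the gene body, extended by 5 kb on each side, by at least 1 bp. Peaks of all 9 libraries were also merged into 71400 intervals, of which 28 fell in the windows of these genes, each in the window of a single member.

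Killer lectin-like receptors are C-type lectin-like proteins on the surface of natural killer (NK) cells and of some T cells. Inhibitory members carry a cytoplasmic motif that recruits phosphatases, and activating members signal through small adaptor proteins. Many bind MHC class I or related molecules, others bind Clec2 lectins, stress-induced ligands or cadherins. NKT cells acquire several of these receptors during their maturation in the thymus.

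The study compared cells that express PLZF, the transcription factor encoded by *Zbtb16*, with related cells that do not, by ATAC-seq, in which a transposase inserts sequencing adaptors into accessible DNA. In the thymus, NKT cells (2 libraries), innate-like T cells that recognize lipids on CD1d, were compared with CD4 single positive (CD4SP) thymocytes (2 libraries), which are conventional T cell precursors. In the bone marrow, innate lymphoid cell precursors (ILCP, 2 libraries), sorted as Lin-IL-7Rα+α4β7+eGFP+ cells, where eGFP marks *Zbtb16* expression in *Zbtb16*-IRESGFPcre reporter mice, were compared with common lymphoid progenitors (CLP, 3 libraries), sorted as Lin-IL-7Rα+ cells with intermediate cKit and Sca-1 and high Flt3. All libraries were labelled C57BL/6, the mice were 4 to 8 weeks old, and apart from the reporter allele no group carried an engineered change or received a treatment. The depletion of lineage-positive cells before the CLP sort included an antibody against NK1.1, the product of the member gene *Klrb1c*.

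The libraries held between 19343 peaks (CLP replicate 1) and 41535 peaks (CLP replicate 2), and the number of reads behind each list was not given. The start sites of 7 of 7 T cell markers were open in all 4 thymic libraries and those of 2 or 3 of 7 in the marrow libraries. *Zbtb16* had 13 and 11 peaks in the NKT libraries against 3 and 3 in CD4SP. It had 7 and 7 peaks in ILCP against 0, 7 and 2 in CLP, so that the library labelled CLP replicate 2 held as many as each ILCP library. Over the marker lists, 2 of 5 NKT markers, *Zbtb16* included, had more peaks in every NKT than in every CD4SP library (7.21% of all genes did), and 3 of 8 ILCP markers more in every ILCP than in every CLP library (4.33%). Of 5 CLP markers, 3 had more peaks in every CLP than in every ILCP library (7.51%), and 2 of these 5 and 1 ILCP marker had more in every CD4SP than in every NKT library (5.08%). Of 6 NK cell markers, 1 was open at its start in each ILCP library (*Ncr1*, with no peak in the other types), against 2 or 3 in the thymic libraries and 1, 4 and 4 in CLP. Of markers of other cells, at most 1 of 5 myeloid starts, 1 or 2 of 5 B cell starts and 1 or 2 of 4 erythroid starts were open in each library.

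Accessibility at the killer lectin-like receptor genes was sparse, and peaks were as many in NKT as in CD4SP thymocytes. A peak was called at 18 of the 26 genes (69.2%) in at least 1 library, against 74.5% of all protein-coding genes. Both CD4SP and both NKT libraries gave 16 and 15 peaks over all member windows, a mean of 15.5 ± 0.707 (SD, n = 2) in each type. In base pairs covered, both CD4SP libraries (13624 and 13308 bp) exceeded both NKT libraries (12721 and 12542 bp), and with windows of 20 kb on each side the mean difference (NKT minus CD4SP) was -4.5 peaks. The CLP libraries gave 6, 15 and 16 peaks (12.3 ± 5.51, SD, n = 3) and the ILCP libraries 6 and 8 (7 ± 1.41, SD, n = 2). The ILCP values overlapped the CLP values through CLP replicate 1, the library with the fewest peaks. In such bulk libraries a site open in few cells and a site weakly open in all cells cannot be told apart.

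Per 10,000 peaks of the library, the members held 4.76 and 3.96 peaks in CD4SP, 4.61 and 3.87 in NKT, 3.1, 3.61 and 3.99 in CLP, and 2.28 and 3.1 in ILCP. On this scale the ILCP values reached only the lowest CLP value, and the values of the thymic types overlapped. With the same number of highest-scoring peaks taken from every library, the mean difference between ILCP and CLP was -1.83 peaks, against -5.33 with all peaks. The median over the 18 members with a peak was 0.667 peaks per gene (mean over libraries), against 1.33 over the 16348 protein-coding genes with a peak. Fewer members were open at their start: 8 of 26 (30.8%) had a peak within 1 kb of the start site in some library, against 59.6% of all protein-coding genes.

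**Figure D1:**
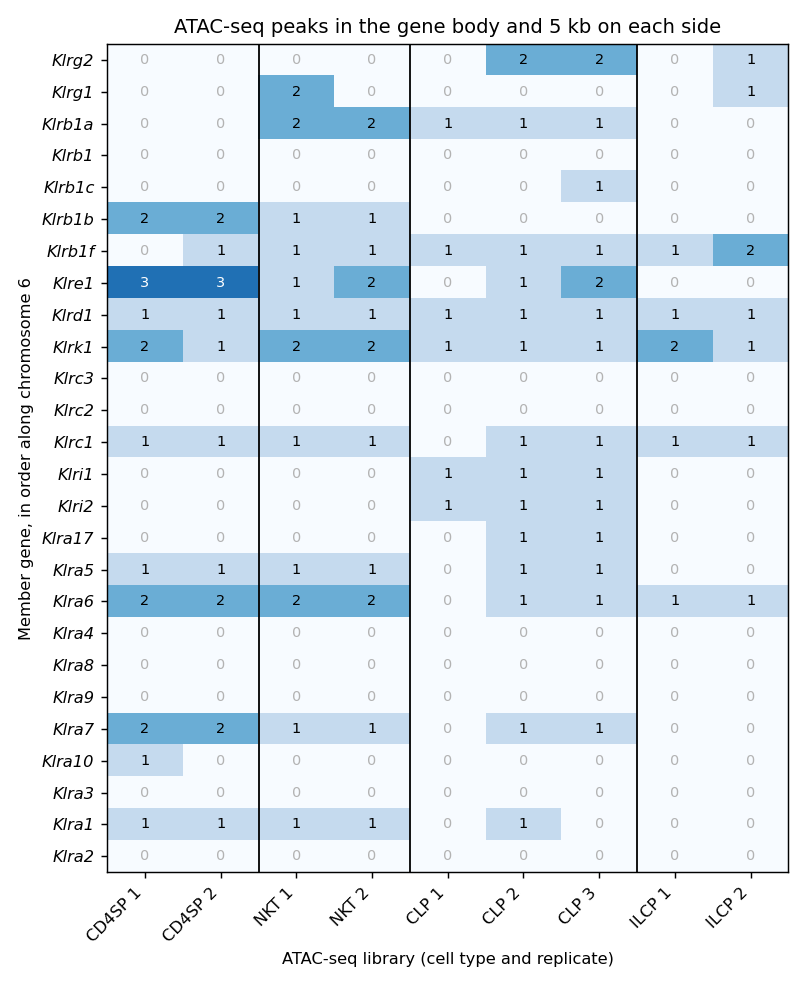
Number of ATAC-seq peaks in the window of each of the 26 member genes (rows, in order along chromosome 6) in each of the 9 libraries (columns, grouped by cell type). *Klrd1* and *Klrk1* had a peak in every library, 8 genes had none, and *Klri1* and *Klri2* had peaks in the 3 CLP libraries alone.

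**Figure D2:**
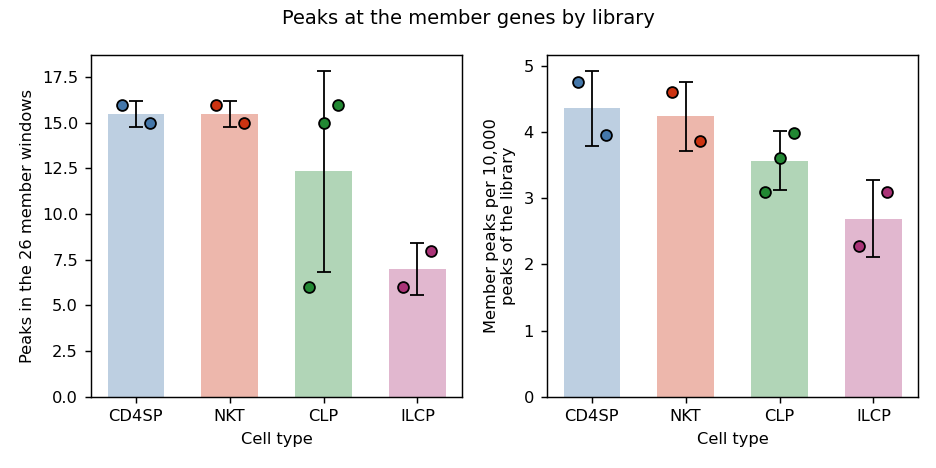
Peaks over all member windows in each library, as a number (left) and per 10,000 peaks of the library (right), by cell type. Bars are means, error bars SD and points single libraries. CD4SP and NKT had the same mean of 15.5 peaks, and ILCP a mean of 7.

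The 28 intervals were mostly away from coding sequence. By their midpoint, 14 lay upstream of the gene, 7 in an intron, 5 downstream and 2 in an exon, and 9 covered an annotated transcript start. Of the 28, 9 were open in thymic libraries alone, 7 in marrow libraries alone and 12 in both tissues. The shares of all merged intervals with these places and tissues were not computed, so these counts are not set apart from the background. In all 9 libraries 2 intervals were open (7.14%), against 13.3% of all merged intervals. Each peak was ranked by its score within its library, where the median of all peaks lies at 50% by construction. The median rank of member peaks ran from the upper 50.1% (NKT replicate 1), near that value, to the upper 71.3% (NKT replicate 2).

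*Klrd1* encodes CD94, the partner with which the NKG2 chains form receptors for the nonclassical MHC molecule Qa-1. Its start was open in all 9 libraries (chr6:129591122-129592356), and it was the one member open within 1 kb of the start in every library. The peak ranked in the upper 51.7% and 48.6% of peaks in CD4SP and in the upper 17% and 32% in NKT. In CLP it ranked in the upper 27.1%, 25.7% and 18.8%, and in ILCP in the upper 66% and 50.7%. Both NKT libraries thus ranked it above both CD4SP libraries, while all 3 CLP libraries ranked it above both ILCP libraries.

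The mean rank differed by -25.6 percentage points between NKT and CD4SP (24.5 ± 10.6 against 50.1 ± 2.23, SD, n = 2 each) and by 34.6 points between ILCP and CLP (58.4 ± 10.8, n = 2, against 23.8 ± 4.45, n = 3). Exact two-sided permutation tests gave p = 0.333 in the thymus and p = 0.1 in the marrow, the smallest that 2 against 2 and 2 against 3 libraries allow. The opposite directions were compared by permuting labels within each tissue, with 60 arrangements. The difference of the differences was -60.2 points, with exact permutation p = 0.0167, again the smallest possible, and an adjusted p of 0.515 over the 9464 intervals open in all libraries. Of those intervals 3.23% reached this smallest p, and the other member interval open in all libraries did not (p = 0.4 in the exact permutation test).

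The sequence of the centre of this interval, up to the annotated start, is shown because the interval was open throughout. Capitals mark matches on either strand to the Runx core TGTGGT or to the AP-1 site TGANTCA, and the stretch (chr6:129591590-129591781, + strand) held 1 of each.
*Klrd1* start: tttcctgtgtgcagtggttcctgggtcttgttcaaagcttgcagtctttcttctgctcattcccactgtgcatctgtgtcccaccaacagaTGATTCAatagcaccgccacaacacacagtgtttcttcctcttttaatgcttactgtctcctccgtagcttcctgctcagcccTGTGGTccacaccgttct

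*Klrc1* encodes NKG2A, the inhibitory partner of CD94, and carried the highest-ranked peak of any member. The interval lay 1619 bp upstream of the gene start (chr6:129679950-129681235). It ranked in the upper 13.3% and 24.7% in CD4SP, in the upper 3.51% and 17.7% in NKT, and in the upper 16.2% and 15.5% in ILCP. In CLP it was absent from replicate 1 and ranked in the upper 74.7% and 73.7% in replicates 2 and 3. Both ILCP libraries and all thymic libraries therefore ranked it above every CLP library. The difference between ILCP and CLP has no rank test, since 1 library had no peak.

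The central 300 bases of the *Klrc1* interval (chr6:129680443-129680742, + strand) are shown because the interval was strong in all types except CLP. They also held a Runx core and an AP-1 site, in capitals.
*Klrc1* upstream: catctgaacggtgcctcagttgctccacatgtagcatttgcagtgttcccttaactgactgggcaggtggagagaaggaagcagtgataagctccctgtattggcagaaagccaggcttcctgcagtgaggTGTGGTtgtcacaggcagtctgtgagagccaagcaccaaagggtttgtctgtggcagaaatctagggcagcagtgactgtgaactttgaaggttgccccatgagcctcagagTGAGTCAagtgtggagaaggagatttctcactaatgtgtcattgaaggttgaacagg

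*Klrc2* and *Klrc3*, which encode the activating partners NKG2C and NKG2E, had no peak in any library. Near their starts few stretches of the size of a read were unique: 17.9% of the 50-base stretches within 1 kb of the *Klrc2* start and 21% of those at *Klrc3* occurred once in the genome, against 100% at *Klrc1* and 85.9% over the genome. Over the whole windows the shares were 38.2% at *Klrc2*, 63% at *Klrc3* and 57.5% at *Klrc1*. The part of this in the absence of peaks was not tested, since the handling of reads that align to several places is not given in the sources used here.

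*Klrk1* encodes NKG2D, the activating receptor for stress-induced ligands. It had 2 and 1 peaks in CD4SP, 2 and 2 in NKT, 1 in each CLP library, and 2 and 1 in ILCP. The peak common to all 9 libraries (chr6:129607968-129609249) lay between *Klrd1* and *Klrk1*, downstream of the latter. Its rank ran from the upper 22.4% (CLP replicate 2) to the upper 68.3% (CLP replicate 1), so the spread within CLP exceeded that between types. A second interval lay 3685 bp upstream of the start (chr6:129627112-129627987) and was open in NKT replicate 1 and ILCP replicate 1, in the upper 49.6% and 91.3%, with no peak in CD4SP or CLP and none in the other NKT and ILCP libraries.

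That upstream *Klrk1* interval is shown because it was open in libraries of both PLZF-expressing types and in neither control type. So was 1 other member interval, at *Klrg1*, which ranked in the upper 77.8% and 98.1%. Both rested on 1 library of each type, and the share of all merged intervals with this pattern was not computed. The central 300 bases of the *Klrk1* interval (chr6:129627400-129627699, + strand) held a match to the Ets site ACAGGAAG, in capitals on the reverse strand.
*Klrk1* upstream: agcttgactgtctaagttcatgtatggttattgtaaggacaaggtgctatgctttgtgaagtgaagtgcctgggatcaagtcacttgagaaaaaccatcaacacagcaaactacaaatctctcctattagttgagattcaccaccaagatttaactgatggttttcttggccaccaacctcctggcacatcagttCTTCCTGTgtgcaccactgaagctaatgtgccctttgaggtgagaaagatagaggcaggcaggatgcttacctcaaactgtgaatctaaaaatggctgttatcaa

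**Figure D3:**
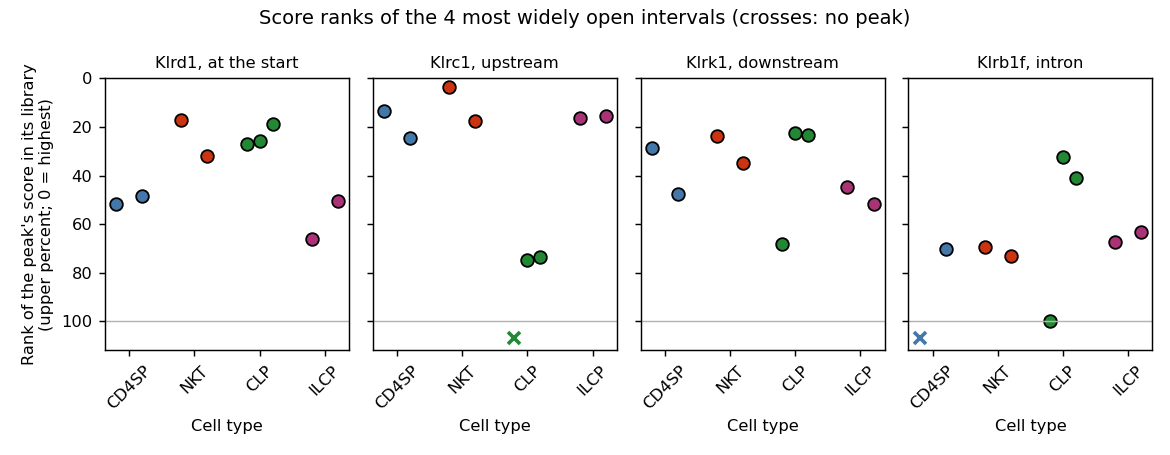
Rank of the peak's score within its library (0 is the highest-scoring peak, 100 the lowest) for the 4 member intervals open in at least 8 libraries, by cell type. Each point is a library and a cross marks a library with no peak. At the *Klrd1* start NKT and CLP ranked above CD4SP and ILCP, and at *Klrc1* the CLP libraries stood below the rest.

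The *Klrb1* genes encode the NKR-P1 receptors, several of which recognize Clec2 lectins. *Klrb1a* had 0 and 0 peaks in CD4SP, 2 and 2 in NKT, 1, 1 and 1 in CLP, and 0 and 0 in ILCP. It was the one member with more peaks in every NKT library than in every CD4SP library, and the reverse held in the marrow, where every CLP library had more than both ILCP libraries. The intervals differed, however: 2 were open in NKT alone (chr6:128604250-128605098, downstream, and chr6:128622519-128623391, at the start), and 1 in CLP alone (chr6:128624046-128625166), 1073 bp upstream of the start.

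The *Klrb1a* peaks were weak in NKT. The downstream peak ranked in the upper 72.6% and 88.4% of the NKT libraries and the start-site peak in the upper 76.7% and 90.7%. The CLP peak ranked in the upper 83%, 60% and 41%. With the same number of highest-scoring peaks taken from every library, the NKT peaks were no longer in the lists. The difference between NKT and CD4SP was 2 peaks (exact permutation p = 0.333) and that between ILCP and CLP was -1 (exact permutation p = 0.1). These differed by 3 peaks with exact permutation p = 0.0167 and an adjusted p of 1, and 0.361% of the genes tested reached this smallest p.

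The sequences at *Klrb1a* are shown because they set NKT and CLP apart. The downstream interval (chr6:128604525-128604824) had none of the 6 motifs searched. The part of the start-site interval outside the untranslated exons (chr6:128622935-128623105) and the CLP interval (chr6:128624457-128624756) each held a Runx core, in capitals, on opposite strands. All are given on the + strand.
*Klrb1a* downstream, NKT: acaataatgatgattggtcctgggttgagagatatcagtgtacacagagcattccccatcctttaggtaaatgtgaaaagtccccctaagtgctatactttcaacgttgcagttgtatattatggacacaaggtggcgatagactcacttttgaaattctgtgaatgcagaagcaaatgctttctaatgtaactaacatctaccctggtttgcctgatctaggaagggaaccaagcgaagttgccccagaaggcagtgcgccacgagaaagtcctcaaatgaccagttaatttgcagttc
*Klrb1a* start, NKT: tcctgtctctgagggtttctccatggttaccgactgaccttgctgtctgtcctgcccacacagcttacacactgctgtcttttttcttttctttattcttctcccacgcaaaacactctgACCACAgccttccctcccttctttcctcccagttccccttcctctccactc
*Klrb1a* upstream, CLP: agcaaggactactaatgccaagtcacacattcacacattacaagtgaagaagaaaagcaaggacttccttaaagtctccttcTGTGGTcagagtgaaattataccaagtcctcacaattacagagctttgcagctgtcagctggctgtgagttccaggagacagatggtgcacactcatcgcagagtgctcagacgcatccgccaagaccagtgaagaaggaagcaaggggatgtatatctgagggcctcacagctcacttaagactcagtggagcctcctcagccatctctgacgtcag

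*Klrb1b*, whose product is an inhibitory receptor for Clec2d, had 2 and 2 peaks in CD4SP, 1 and 1 in NKT and none in the 5 marrow libraries. The interval shared by both thymic types (chr6:128808379-128809288) ranked in the upper 29.7% to 40%. The interval present in CD4SP alone (chr6:128819916-128820784, in an intron) ranked in the upper 59.9% and 79.8%. Both also lay inside *Gm44511*, an overlapping gene, to which they could equally be assigned.

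*Klrb1c*, the gene for NK1.1, had no peak in NKT, CD4SP or ILCP and 1 weak peak in CLP replicate 3, in the upper 96.6%. NK1.1 is the marker by which the last stage of NKT maturation is recognized, and its depletion was part of the CLP sort. *Klrb1f* had a peak in 8 libraries and none in CD4SP replicate 1. That interval (chr6:129048798-129050414) lay in an intron by its midpoint. It covered an annotated *Klrb1f* transcript start and the start of the antisense gene *Gm44000*, and ATAC-seq does not tell apart the strands. *Klrb1* itself had no peak in any library.

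*Klre1*, *Klri1* and *Klri2* belong together, because the KLRE1 protein forms an inhibitory receptor with KLRI1 and an activating one with KLRI2. *Klre1* had 3 and 3 peaks in CD4SP, 1 and 2 in NKT, 0, 1 and 2 in CLP, and 0 and 0 in ILCP. Every CD4SP library thus exceeded every NKT library, by a mean of 1.5 peaks, and neither ILCP library had a peak. Its interval with the midpoint in an intron (chr6:129580999-129583735) covered an annotated *Klre1* transcript start and was joined by a wide peak of CLP replicate 2 (2486 bp). The best CD4SP peaks in it (from 129582772 and from 129582813) began beyond the ends of the NKT peaks (129581761 and 129581829), so those peaks did not overlap. Each CD4SP library had 2 peaks in the interval, and whether the lower-ranked one overlapped the NKT peaks was not examined. *Klri1* and *Klri2* were open in CLP alone, with 1 peak in each of the 3 CLP libraries and 0 in the 6 others. The *Klri2* peak covered the gene start (chr6:129739830-129740916) and ranked in the upper 39.1%, 31.2% and 42.2%. The *Klri1* peak (chr6:129712606-129714338) lay in an intron and ranked in the upper 61.6%, 26.1% and 28.6%. The partners therefore had different patterns, with *Klre1* richest in CD4SP and its possible partners without a peak there. For each of *Klri1* and *Klri2* the difference between ILCP and CLP was -1 peak (exact permutation p = 0.1, the smallest possible).

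*Klrg1* and *Klrg2* lie outside the complex. *Klrg1*, an inhibitory receptor for cadherins found on mature NK and effector T cells, had 2 peaks in NKT replicate 1, 1 in ILCP replicate 2 and none elsewhere. Those peaks ranked between the upper 76.5% and 98.1%, and the replicate of each type lacked them. *Klrg2* had 2 and 2 peaks in CLP replicates 2 and 3, 1 in ILCP replicate 2 and none in the thymus. At both genes the types compared overlapped.

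The *Klra* genes encode the Ly49 receptors, most of them inhibitory receptors for MHC class I, and several are known to carry an additional promoter well upstream of the main one. Of 11 *Klra* genes, 6 had a peak in some library. *Klra6* had 2 peaks in each thymic library, 0, 1 and 1 in CLP, and 1 and 1 in ILCP. *Klra7* had 2 and 2 in CD4SP, 1 and 1 in NKT, 0, 1 and 1 in CLP and none in ILCP. *Klra5* had 1 in each thymic library, 0, 1 and 1 in CLP and none in ILCP. At *Klra7* the peak that CD4SP had and NKT lacked (chr6:130236284-130237144) lay 3392 bp upstream of the start and ranked in the upper 59.1% and 74.1%.

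*Klra1* had the same pattern as *Klra5* except that CLP replicate 3 also lacked the peak. *Klra17*, which encodes Ly49Q of myeloid and plasmacytoid cells, was open at its start in CLP replicates 2 and 3 alone (upper 59.6% and 56.2%). *Klra10* had 1 peak, in CD4SP replicate 1, in the upper 95.6%. *Klra2*, *Klra3*, *Klra4*, *Klra8* and *Klra9* had no peak in any library, and *Klra4* and *Klra8* encode the activating receptors Ly49D and Ly49H.

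At 4 *Klra* genes 1 interval each was a copy of a single element. The other intervals at *Klra6* and *Klra7* were not copies of it. The central 300 bases of the *Klra7* interval (chr6:130237359-130238458) aligned over 299 bases to *Klra5* with 89.6% identity, over 269 bases to *Klra6* with 91.4% and over 300 bases to *Klra1* with 93%. In *Klra5* and *Klra1* the copy lay at the annotated start, with its midpoint 109 and 207 bp upstream. In *Klra6* and *Klra7* it lay 4865 and 4586 bp upstream. The copies at *Klra5*, *Klra6* and *Klra7* were open in all 4 thymic libraries, in CLP replicates 2 and 3 and in neither ILCP library, and that at *Klra1* in the same libraries except CLP replicate 3.

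Copies of this element also lay 4643 bp upstream of *Klra9*, with 89.3% identity, and 4718 bp upstream of *Klra3*, with 88.6%, and neither had a peak in any library. The stretch around the Runx core, 50 bases on each side, is shown for all 6 copies because copies with and without a peak shared the Runx core and most of its flanks. It is written on the - strand, on which these genes are read, with the Runx core in capitals.
*Klra7* (chr6:130237848-130237953, with a peak): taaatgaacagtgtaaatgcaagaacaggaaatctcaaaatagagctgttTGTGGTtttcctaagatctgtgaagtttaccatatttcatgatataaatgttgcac
*Klra6* (chr6:130031760-130031865, with a peak): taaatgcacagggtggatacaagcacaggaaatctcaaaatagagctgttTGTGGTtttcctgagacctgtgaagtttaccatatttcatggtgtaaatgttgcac
*Klra5* (chr6:129917697-129917803, with a peak): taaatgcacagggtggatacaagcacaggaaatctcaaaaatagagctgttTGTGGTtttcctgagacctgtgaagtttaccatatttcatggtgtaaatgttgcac
*Klra1* (chr6:130387020-130387125, with a peak): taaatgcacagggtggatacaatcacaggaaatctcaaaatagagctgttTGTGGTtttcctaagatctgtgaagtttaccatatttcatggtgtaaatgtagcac
*Klra9* (chr6:130197694-130197799, no peak): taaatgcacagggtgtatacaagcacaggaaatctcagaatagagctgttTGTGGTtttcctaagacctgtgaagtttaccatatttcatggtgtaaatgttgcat
*Klra3* (chr6:130342231-130342336, no peak): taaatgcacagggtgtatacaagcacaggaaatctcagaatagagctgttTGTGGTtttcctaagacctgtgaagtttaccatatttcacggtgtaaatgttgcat

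Each copy held 1 Runx core at the same place. Of the 106 bases of *Klra7*, 96 were the same in *Klra6*, 96 in *Klra1*, 95 in *Klra9* and 94 in *Klra3*. Over all 6 copies 91 of 106 positions were the same, and at 3 positions the copies without a peak shared a base that no copy with a peak had. The *Klra5* stretch was 1 base longer. The share of 50-base stretches of the aligned copy that occurred once in the genome was 83.8% to 92.8% in the 4 copies with a peak and 69.4% in each of the copies without. Its part in the absence of peaks was not tested.

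A second repeated element was open at *Klra6*, 2986 bp upstream (chr6:130029394-130030487). It was open in all thymic libraries, in both ILCP libraries and in no CLP library, and it was the one member interval specific to ILCP against CLP. It ranked in the upper 47.2% and 56.5% in CD4SP, 50.6% and 71.9% in NKT, and 53.5% and 97.4% in ILCP. Its central 300 bases matched a stretch at *Klra10* with 92.3% identity, which carried that gene's weak CD4SP peak. Copies at *Klra5*, *Klra9*, *Klra7*, *Klra3* and *Klra1* had between 82.1% and 92.6% identity and no peak. Of these, the copy at *Klra5* was wholly unique on the scale of 50 bases (100%) and those at *Klra1* and *Klra7* nearly so (95% and 94.3%), while those at *Klra9* and *Klra3* stood at 69.2% and 80.3%.

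The *Klra6* interval is shown because it was open in ILCP and not in CLP. Its central 300 bases (chr6:130029791-130030090, + strand) had none of the 6 motifs searched.
*Klra6* upstream: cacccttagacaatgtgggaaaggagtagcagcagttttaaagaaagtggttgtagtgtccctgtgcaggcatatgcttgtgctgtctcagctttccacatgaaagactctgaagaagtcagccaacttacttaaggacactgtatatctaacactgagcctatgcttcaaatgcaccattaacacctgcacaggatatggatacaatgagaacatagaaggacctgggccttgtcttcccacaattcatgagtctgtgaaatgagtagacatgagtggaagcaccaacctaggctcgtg

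**Figure D4:**
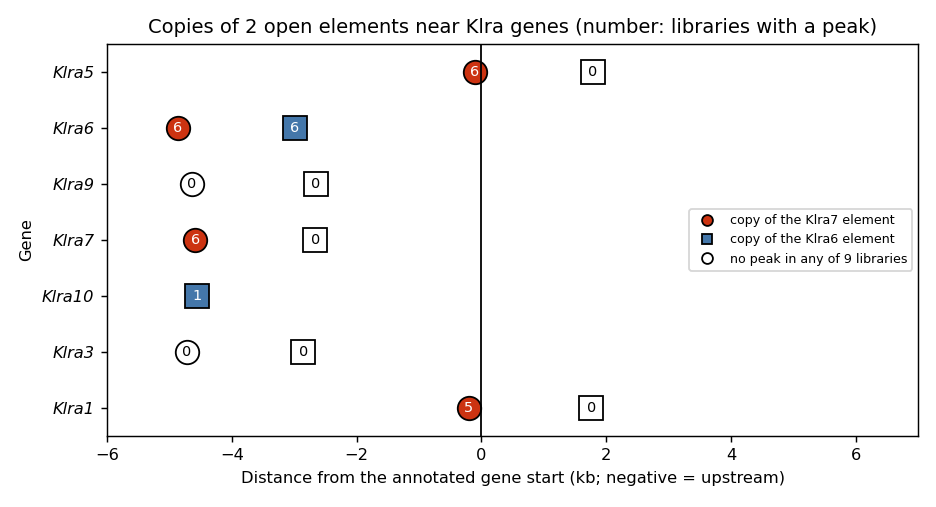
Position of the copies of the *Klra7* element (circles) and of the *Klra6* element (squares), as the distance in kb of the midpoint of the copy from the annotated start of each *Klra* gene. The number is that of the libraries, of 9, with a peak over the copy, and open symbols mark copies with none. Copies of the *Klra7* element had peaks at 4 of 6 genes.

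Uniqueness of sequence varied widely in the complex. Over the window of each gene, the share of 50-base stretches found once in the genome had a median of 90.5% (57.5% to 98.9%) in the 18 members with a peak and of 64.9% (38.2% to 90.6%) in the 8 with none. Among *Klra* genes the medians were 88.8% for the 6 with a peak and 66.8% for the 5 with none. Among the genes without a peak, *Klrb1* (90.6%) and *Klra4* (87.8%) had the most unique windows. The lowest share among the genes with a peak was that of *Klrc1* (57.5%), whose interval was itself 100% unique. The part of uniqueness in these counts was not tested.

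**Figure D5:**
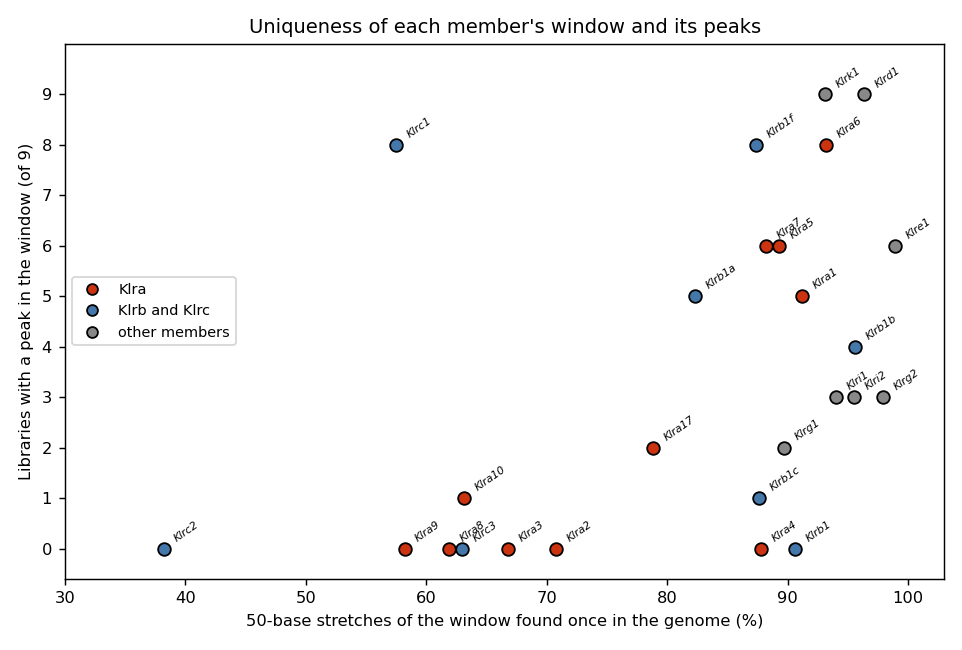
Share of the 50-base stretches of each member's window that occur once in the mm10 genome (x axis, percent) against the number of libraries, of 9, with a peak in the window (y axis). Each point is a gene. The 8 genes with no peak lie between 38.2% and 90.6%, and the 18 with peaks between 57.5% and 98.9%.

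Members called in each direction were set beside the share of all genes called. More peaks in every NKT than in every CD4SP library were found at 1 of 18 members (*Klrb1a*), against 7.21% of the 16348 genes tested. The reverse was found at 3 of 18 (*Klrb1b*, *Klre1* and *Klra7*), against 5.08%. By intervals, 2 of 28 were specific to NKT (both at *Klrb1a*), against 4.3% of all merged intervals. Specific to CD4SP were 2 of 28 (*Klrb1b* and *Klra7*), against 3.46%. Counts of this size were not tested against the background shares.

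In the marrow, 0 of 18 members had more peaks in every ILCP library than in every CLP library, against 4.33% of genes. The reverse was found at 3 of 18 (*Klrb1a*, *Klri1* and *Klri2*), against 7.51%. Specific to ILCP was 1 of 28 intervals (*Klra6*), against 6.34%, and specific to CLP were 3 of 28, one at each of those 3 genes, against 5.97%. Without CLP replicate 1, the count of members with more peaks in CLP went from 3 to 8 of 18, where the share of all genes was 36.4%, and the intervals specific to CLP from 3 to 9 of 28, where the share of all intervals was 22.2%. CLP replicate 1 thus set both the counts and their background.

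Score ranks were compared where every library had a peak. Of 10 member intervals open in all thymic libraries, 1 (*Klrd1*) ranked higher in every NKT library, against 19.9% of such intervals, and 1 (*Klrb1b*) ranked higher in every CD4SP library, against 20.6%. Of 3 open in all marrow libraries, 0 ranked higher in every ILCP library, against 13.5%, and 1 (*Klrd1*) in every CLP library, against 25%.

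Over both tissues, with NKT minus CD4SP and ILCP minus CLP summed and labels permuted within each tissue, 0 of 18 members reached the smallest exact permutation p of 0.0167, against 0.795% of genes. The lowest member p was 0.0667, at *Klre1* and *Klra7*, both with fewer peaks in the PLZF-expressing types. After Benjamini-Hochberg adjustment 0% of the genes tested had p under 0.05, and at an unadjusted p under 0.05 there were 232 genes and 0 members.

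Motifs in the central 300 bases of the intervals were counted on both strands. The Runx core TGTGGT was in 11 of 28 member intervals (39.3%), against 32.1% of all merged intervals and 16.8% of RefSeq promoters. The AP-1 site TGANTCA and the GATA site AGATAA were each in 6 of 28 (21.4%), against 9.64% and 14.5% of all intervals and 7.81% and 11.2% of promoters. The TCF site ATCAAAG was in 2 of 28 (7.14%, against 6.37% and 3.73%), the Ets site ACAGGAAG in 1 (3.57%, against 9.43% and 3.58%) and the T-box site AGGTGTGA in 0 (against 1.33% and 1.28%). The 4 copies of the *Klra* element are not independent sequences, and they supplied 4 of the 11 intervals with a Runx core, 2 of the 6 with an AP-1 site and 2 of the 6 with a GATA site. These matches are descriptions of the letters and not of binding.

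Genes that work with these receptors were counted in the same way. Of 12 adaptor and signalling genes, all had a peak in some library, 2 had more peaks in every NKT than in every CD4SP library (7.21% of all genes did) and 5 more in every CLP than in every ILCP library (7.51% of all genes). A peak in some library was called at 74.5% of all protein-coding genes. No test of these lists was made. *Hcst*, which encodes the NKG2D adaptor DAP10, had 2 and 2 peaks in CD4SP, 3 and 3 in NKT, 4, 4 and 4 in CLP, and 1 and 0 in ILCP. *Tyrobp*, which encodes the adaptor DAP12, had 2 and 2, 3 and 3, 3, 5 and 5, and 2 and 1 peaks in the same order. At both adaptors NKT thus exceeded CD4SP by 1 peak in every library and CLP exceeded ILCP. They were the 2 genes of the list with more peaks in every NKT library. In these lists a peak was counted for every gene whose window it overlapped. Whether the 2 adaptors shared peaks was not examined.

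Of 15 ligand genes found, 13 had a peak, 2 had more in every NKT library, 1 in every CD4SP library and 4 in every CLP library, where the shares of all genes were 7.21%, 5.08% and 7.51%. *Clec2d*, the ligand gene for the *Klrb1b* product, had 3 and 3 peaks in CD4SP and 1 and 1 in NKT, the same direction as *Klrb1b*. Of 7 other lectin genes of the complex, 6 had a peak and 1 (*Clec1a*) had more in every NKT library. Among 12 transcription factor genes known for the regulation of these receptors, 1 (*Nfil3*) had more peaks in every NKT library, 3 (*Ets1*, *Tcf7* and *Tox*) in every CD4SP library, and 2 (*Nfil3* and *Id2*) in every ILCP library, against 7.21%, 5.08% and 4.33% of all genes. *Tbx21*, which encodes T-bet, had 1 peak in NKT replicate 2 and none in the other libraries.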

How the data were processed

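ATAC-seq was performed on sorted cells in 9 libraries, described as biological replicates. Per the study's methods, reads were 50 bp long and Bowtie placed them on mm10 with up to 2 mismatches. The study names MACS as the peak caller without describing the run. The deposited lists, 1 for each library, give a peak's position and the score of the peak caller (at least 120). The submitters' processing notes also name Picard, without a role, and HOMER, which the study used for ChIP-seq tracks. MACS settings, whether duplicates were removed and how reads with several alignments were treated are not given in the sources used here. A range of read numbers is stated for the libraries in general and none for a single library, so scores were used only as ranks within a library. The remaining 2 samples (Runx1 ChIP and its input) were not analysed here.

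Peaks were merged and assigned with Python 3.11.15, numpy 2.4.6 and GENCODE M21. Specific intervals had a peak in all libraries of 1 type and in no library of the type compared with it. Mean peak numbers and ranks were tested for all genes or intervals by exact two-sided permutation of library labels with Benjamini-Hochberg adjustment, in code tested on simulated data. Sequences came from GRCm38.p6 (RefSeq), through pysam 0.24.0 and Biopython 1.88. Uniqueness counts 50-base stretches found exactly once on either strand of the genome, without mismatches.

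Intervals were described when specific to a type, open in both types of both tissues, or within 1 kb of a start. Sequences were shown by rule for the *Klrk1*, *Klra6* and *Klrb1a* intervals open in NKT or ILCP, and the others were chosen after their values were seen. The members and gene lists were chosen with earlier results of these data known.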

Additional observations from a re-analysis of the deposited data

Results flagged for a closer look

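At *Klrb1a* the difference in peak number had opposite directions in the 2 tissues, with 2 more peaks in NKT than in CD4SP and 1 fewer in ILCP than in CLP. The differences differed by 3 peaks (exact permutation p = 0.0167, the smallest possible; adjusted p = 1). All 4 thymic and all 5 marrow libraries showed these directions, but the intervals behind them were not the same. The opposite directions ended under 3 alternatives: with no extension of the gene body the marrow difference was 0 (p = 0.333 in the exact permutation test of the contrast), and with equal numbers of peaks or the higher-scoring 50% the thymic difference was 0 (p = 0.4 and p = 1, exact permutation).

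At the *Klrd1* start the score rank moved in opposite directions, and the differences differed by -60.2 percentage points (exact permutation p = 0.0167, the smallest possible; adjusted p = 0.515). Every NKT library ranked the peak above every CD4SP library and every CLP library ranked it above every ILCP library. Both results had the smallest p that 60 arrangements give and passed no adjustment.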

How the results depend on the processing

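Of the differences recomputed (over all windows, at *Klrb1a*, *Klri1*, *Klri2*, *Klrb1b*, *Klra7* and *Klre1*, and in the *Klrd1* rank), none that was not 0 changed sign, and the counts, all small, moved with some of them. With 20 kb on each side, the difference over all windows between NKT and CD4SP went from 0 to -4.5 peaks. There, 3 genes had more peaks in NKT, 5 in CD4SP and 2 in ILCP, 4 intervals were specific to NKT, 6 to CD4SP, 3 to ILCP and 5 to CLP, and 1 gene reached the smallest p over both tissues. With no extension, 1 interval was specific to NKT, 1 to CD4SP and 0 to ILCP, and the *Klrb1a* difference between tissues was 1 peak (exact permutation p = 0.333). With the same number of highest-scoring peaks per library, as with the higher-scoring 50%, 0 genes and 0 intervals favoured NKT or CD4SP and 1 gene favoured ILCP. With the same number of peaks, the difference over all windows between ILCP and CLP was -1.83 peaks, against -5.33 with all peaks. The *Klrb1a* difference was then 0.667 (exact permutation p = 0.4) or 0.333 (p = 1), and the *Klrd1* rank was not compared at 50%, where not every library kept the peak. In base pairs covered, the NKT to CD4SP difference was -834 bp, and 2 genes had more in NKT, 5 in CD4SP and 2 in ILCP. Per 10,000 peaks it was -0.117, and 2 genes had more in ILCP. With an interval open in any library of a type and in none of the other, 5 were specific to NKT, 3 to ILCP and 11 to CLP.

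Replicate numbers were used as a replicate block, with CLP replicate 3 left out. The differences between tissues were then 3 peaks at *Klrb1a* and -57.6 points at *Klrd1*, each with exact permutation p = 0.125, the smallest possible, and no other call changed. Same-numbered libraries are not stated to share animals, and their deviations correlated at 0.177 in the thymus and -0.011 in the marrow over 71400 intervals.

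Leaving out each library in turn gave 1 to 2 genes with more peaks in NKT, 3 to 4 in CD4SP, 0 to 2 in ILCP and 3 to 8 in CLP. Specific intervals were 2 to 5 for NKT, 2 to 3 for CD4SP, 1 to 2 for ILCP and 3 to 9 for CLP, and 0 to 2 genes reached the smallest p over both tissues. The highest values for CLP and for both tissues came without CLP replicate 1, the NKT value of 5 without NKT replicate 2, and the 2 ILCP genes without ILCP replicate 1. The difference over all windows ran from -0.5 to 0.5 peaks (NKT against CD4SP) and from -8.5 to -3.5 (ILCP against CLP). The *Klrb1a* difference stayed at 3 and that of *Klrd1* ran from -67.8 to -52.5, with exact permutation p from 0.0333 to 0.0556, the last being the smallest that is possible without a CLP library.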
